A study of Mus musculus with 12 samples.

Results

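The genes described here encode the proteasome, the protease complex that degrades ubiquitin-tagged proteins, together with its activators and the factors that assemble it. They were taken as every protein-coding gene whose symbol starts with Psma, Psmb, Psmc, Psmd, Psme, Psmf or Psmg followed by a number, leaving out the immunoproteasome genes Psmb8 and Psmb9. This gave 46 genes of the 14907 listed in the deposited tables. All 46 had values in all 12 libraries and passed the filter on low values that left 12385 genes for testing. They fall into 14 constitutive subunits of the core, the inducible core subunit gene Psmb10, 9 base and 8 lid subunits of the regulatory particle, 5 activator genes, the regulator gene Psmf1 and 7 assembly factors. The last, Psmc3ip, is matched by its name only: it encodes a cofactor of meiotic recombination and no proteasome subunit.

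The libraries came from primary mesenchymal cells of the small intestine of C57/Bl6 mice, cultured to passage 3 and sorted on GFP. The groups, with 3 libraries each, were wild-type (wt) cells with LPS, wt cells left untreated, MyD88 knockout (MyD88ko) cells with LPS and MyD88ko cells left untreated. All cells were serum starved overnight, and LPS, a lipid of the bacterial outer membrane that TLR4 senses, was given at 2 µg/ml for 6 hours. MyD88ko cells carry the genotype ColVIcre-MyD88F/F-RosamTmG, in which Cre expressed from a collagen VI promoter acts in a subset of mesenchymal cells and turns on the GFP of the reporter. The genotype label of the wt cells is MyD88F/F-RosamTmG, without Cre, whereas the design text calls them Cre-positive. A wt label without Cre is at odds with sorting on GFP, which Cre turns on in this reporter. If the label is right, the wt cells may not be the same sorted subset. Cre, the cells sorted and the loss of MyD88 then cannot be told apart in any comparison of genotypes. The replicates are not stated to come from separate animals, so each test measures the spread between these libraries. Treatment also coincides with the series of library codes, a lower one for all untreated and a higher one for all LPS libraries, so an effect of LPS and an effect of the library series cannot be told apart.

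The proteasome consists of a barrel-shaped core and regulatory caps. The core is a stack of alpha rings, which gate the entry, and beta rings, which hold the catalytic sites. The regulatory particle has a lid, which removes ubiquitin, and a base, whose ATPases unfold the substrate and whose other subunits bind ubiquitin. Alternative activators can cap the core in place of the regulatory particle, and inflammatory signals, interferon above all, are known to exchange the catalytic subunits for inducible ones and to raise the activator formed by PSME1 and PSME2. When the proteasome is inhibited, its genes are known to be raised together by the transcription factor NFE2L1.

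Values are normalized 3′ read counts per gene, read at transcript ends and not divided by length. Depth per library, estimated from the rounded values and known only up to a common factor, came to about 2.50 to 5.30 megareads. The LPS-treated MyD88ko cells had 24, 22 and 5 normalized counts of Myd88 and the untreated ones 14, 8 and 10, against 171, 204 and 213 in wt cells with LPS and 99, 98 and 103 in untreated wt cells. All 10 mesenchymal markers looked for were present in every group, with summed values of 43583 to 141702. Untreated wt replicates 1 and 3 differed from replicate 2. The 6 detected epithelial markers of 8 summed to 394 and 981 in replicates 1 and 3, against 8 in replicate 2 and 4 to 54 in the other libraries. On the second principal component of 12385 genes, replicates 1 and 3 scored 45.0 and 36.5, and replicate 2 scored 4.0. The wt LPS libraries scored 22.2 to 36.3 and the MyD88ko ones −43.8 to −10.7, so replicate 2 lay between the genotypes on this component. The 3 detected hepatocyte markers of 5 summed to 3 to 19 in LPS libraries and 103 to 256 in untreated ones, with Alb and Serpina3k at 0 in all LPS libraries. The 5 detected leukocyte markers of 7 summed to 17 to 58, the 2 endothelial markers of 5 to 0 to 10 and the 3 glial markers to 7 to 44 in any library. Whether these marker reads came from cells of those types, and their part in the results below, was not tested. Fewer cells of a type cannot be told apart from less RNA per cell in such bulk samples. The split of the hepatocyte markers also coincides with the series of library codes.

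The mean of the 12 values of a proteasome gene ranged between 27.2 for Psmc3ip and 3180.2 for Psmb4, with a median of 319.0, whereas the median over all tested genes was 82.0. A mean of at least 50 was reached by 44 of the 46. The median within-group SD of the log2 values was 0.29 for the 46 genes, against 0.40 over all tested genes and 0.32 over those with a mean of at least 50. Psma1 had the smallest within-group SD at 0.12 and Psmc3ip, the gene matched by name only, the largest at 1.12.

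**Figure D1:**
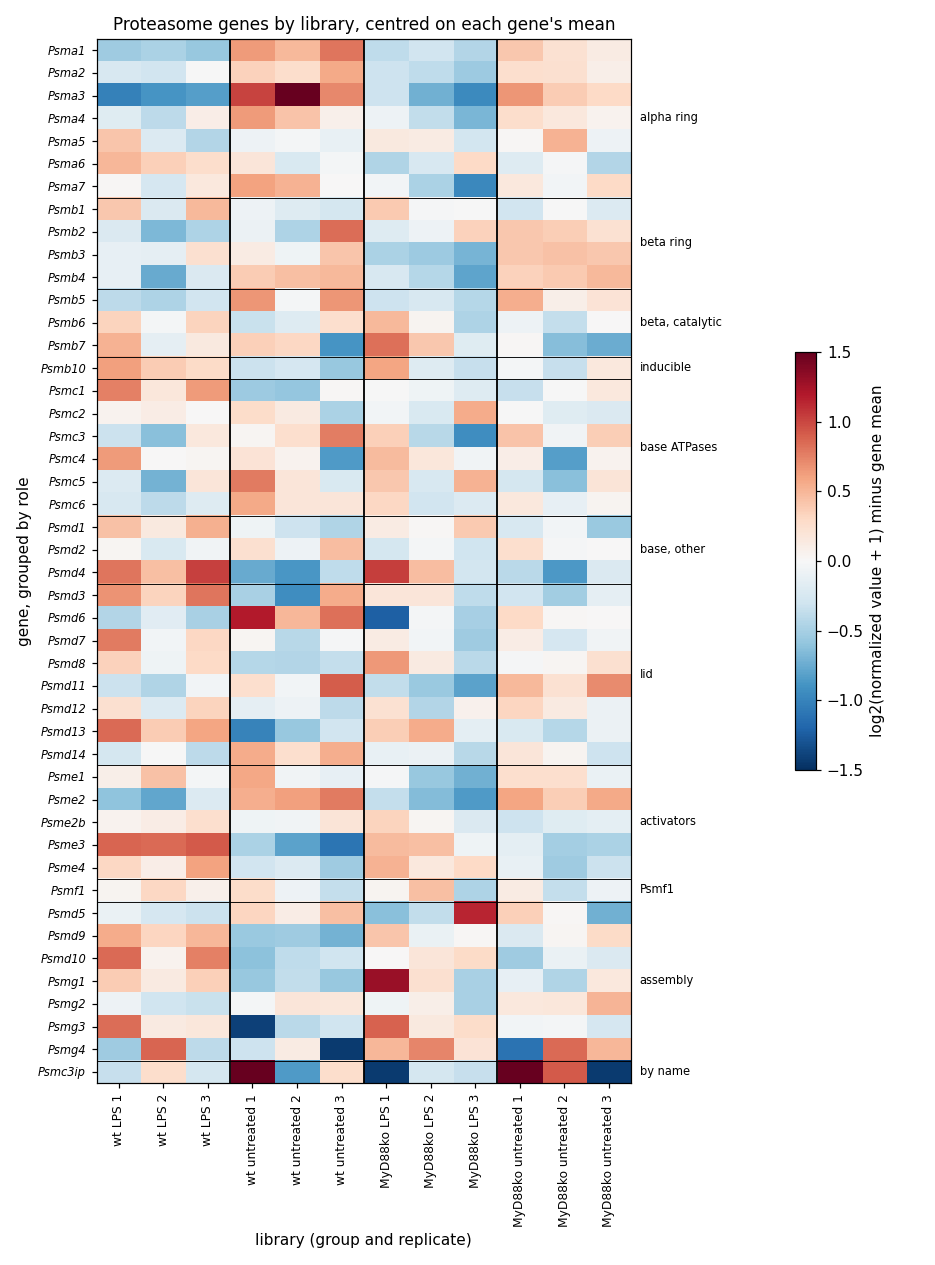
Heat map of the 46 genes (rows, grouped by role) in the 12 libraries (columns, group and replicate). Colour gives log2(normalized value + 1) minus the gene's mean over the libraries, cut at 1.5 in either direction; in wt cells Psma1 and Psma3 are low and Psme3, Psmd4 and Psmd13 high in all 3 LPS libraries relative to all 3 untreated ones.

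The first question was how LPS moved these genes in wt cells, where MyD88, an adaptor of TLR4, is present. The complex did not move as a unit: 11 genes rose and 8 fell of 46 (41.3%), by limma on log2(value + 1) at a Benjamini-Hochberg adjusted p under 0.05 over all 12385 genes. Over all genes tested 19.2% were called, 9.55% higher and 9.66% lower, and among the 8620 genes with a mean of at least 50 the share was 26.3%. Of the 8 that fell, 5 encode subunits of the core, 2 of the lid and 1, Psme2, an activator. The genes that rose included the activator gene Psme3, the ubiquitin receptor gene Psmd4 and 3 assembly factors, and no constitutive core gene. The median log2 fold change of the 46 genes was 0.10, against 0.01 over all genes, with a range between −2.03 for Psma3 and 1.67 for Psme3. In 25 of the 46 genes the LPS and untreated wt libraries did not overlap, against 34.8% of all genes. At an unadjusted p under 0.05, 25 of the 46 passed (54.3%, against 32% of all genes). Without untreated wt replicates 1 and 3, which leaves 1 library as the reference, the median log2 fold change of the 46 genes was 0.11. The count that rose was 5 without wt LPS replicate 1 and 7 without untreated wt replicate 1. The count that fell was 5 without untreated wt replicate 1 or 3. By the authors' deposited table, 3 of the 46 passed an adjusted p of 0.05 in this comparison (6.52%, against 4.35% of all genes): Psma3, Psmd4 and Psme3.

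None of the 14 constitutive core genes rose and 5 fell, with a median log2 fold change of −0.47. Psma3, which encodes an alpha-ring subunit (Ensembl ENSMUSG00000060073, mm10 chromosome 12, 70974621 to 70996347, plus strand), had 266, 292 and 303 normalized counts in LPS libraries, against 1087, 1666 and 889 in untreated wt libraries. The LPS values lay close together and below every untreated value. The log2 fold change was −2.03 ± 0.23 (SE), or 4.08-fold lower, with an adjusted p of 1.19e-05. Psma1, another alpha-ring gene, had 320, 333 and 312 in LPS libraries and 717, 645 and 804 in untreated ones. Its groups were also apart, at 2.23-fold lower (log2 fold change −1.16 ± 0.19, adjusted p = 0.000232). Psma2, of the same ring, fell 1.48-fold (adjusted p = 0.0348), and its call was lost without wt LPS replicate 1 (0.105) or 2 (0.106) and without untreated wt replicate 1 (0.0684) or 3 (0.108). The other 4 alpha-ring genes were not called; Psma6, the lowest of the ring in mean level, had 415, 377 and 352 in LPS libraries against 331, 250 and 287, and Psma7, the highest, had 2226, 1853 and 2459 against 3345, 3160 and 2218.

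Among the beta-ring genes, Psmb4, which encodes a non-catalytic subunit, fell to 2770, 1800 and 2616 in LPS libraries, against 3938, 4152 and 4237 in untreated wt libraries. This was 1.74-fold lower (log2 fold change −0.80 ± 0.20, adjusted p = 0.00905), and without wt LPS replicate 2, the lowest LPS library, the adjusted p was 0.0612. The other 3 non-catalytic genes, Psmb1, Psmb2 and Psmb3, were not called; Psmb2, the lowest of them in mean level, had 144, 105 and 121 in LPS libraries against 158, 121 and 300. The catalytic subunit genes did not move together. Psmb5, which encodes the subunit with chymotrypsin-like activity, had 207, 198 and 224 in LPS libraries, against 431, 266 and 431 in untreated ones. It fell 1.75-fold (log2 fold change −0.81 ± 0.22, adjusted p = 0.0148). Without untreated replicate 1 or 3 the log2 fold change was −0.69 in either case (adjusted p = 0.0720 and 0.0627). Without both, against 1 remaining library, it was −0.34. Psmb6, of the caspase-like subunit, had 1810, 1404 and 1807 against 1142, 1261 and 1713, and Psmb7, of the trypsin-like subunit, 306, 194 and 235 against 272, 264 and 115. In both genes the groups overlapped and neither was called (adjusted p = 0.414 and 0.645). The pseudogene Psmb6-ps2 has rows of its own with 85 to 120 counts in wt LPS libraries and 106 to 185 in untreated ones, so a few reads of Psmb6 may be split; the summed values were 1909, 1489 and 1927 against 1277, 1367 and 1898.

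Psmb10 encodes the inducible counterpart of PSMB7 in the immunoproteasome. It had 308, 262 and 246 normalized counts in wt LPS libraries and 160, 169 and 135 in untreated ones, with no overlap. The rise was 1.75-fold (log2 fold change 0.81 ± 0.25, adjusted p = 0.0276). It was no longer called without wt LPS replicate 1 (0.110) or 2 (0.0570) or without untreated wt replicate 1 (0.0567) or 3 (0.0896). The call was also lost by limma without trend (0.0651) and with a GC correction (0.109). The other immunoproteasome genes, Psmb8 and Psmb9, lie outside the 46 and were not called in any comparison. Psmb8 had 318, 271 and 148 in wt LPS libraries against 204, 267 and 104, and Psmb9 was low throughout, with 11, 21 and 9 against 3, 13 and 22. The ratio of Psmb10 to its constitutive counterpart Psmb7 overlapped between wt groups, at 1.01, 1.35 and 1.05 with LPS and 0.588, 0.640 and 1.17 without. In MyD88ko cells it was 0.804, 0.622 and 0.845 with LPS and 0.912, 1.16 and 1.77 without, lower in every LPS library.

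Of the 17 genes of the regulatory particle, 5 rose and 2 fell in wt cells. In the base, Psmd4 encodes a receptor for ubiquitin chains and lies on mm10 chromosome 3 at 95032694 to 95042614, minus strand. It had 2143, 1674 and 2501 counts in LPS libraries, against 729, 671 and 945 in untreated wt libraries. Every LPS value was above every untreated one, at 2.69-fold higher (log2 fold change 1.43 ± 0.28, adjusted p = 0.00119). Psmb4, which fell, is the nearest other proteasome gene, 145.7 kb from Psmd4. As a description of this pair, whose opposite calls fix the direction, the ratio of Psmd4 to Psmb4 within a library was 0.774, 0.930 and 0.956 with LPS and 0.185, 0.162 and 0.223 without. Psmd1, a scaffold subunit of the base and its lowest non-ATPase in mean level, rose 1.57-fold (adjusted p = 0.0361; 0.108 and 0.123 without wt LPS replicate 1 or 3, 0.0840 and 0.110 without untreated wt replicate 2 or 3). The third, Psmd2, was not called.

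Of the 6 ATPase genes of the base, Psmc1 alone was called: it had 602, 399 and 552 counts in wt LPS libraries and 243, 237 and 360 in untreated ones. This was 1.85-fold higher (adjusted p = 0.00898), and 0.0541 without wt LPS replicate 1. Psmc6 went the other way, with 534, 484 and 555 in LPS libraries against 938, 720 and 719, and missed the threshold (log2 fold change −0.59, adjusted p = 0.0513). The ATPase gene with the highest mean, Psmc5, had 1209, 847 and 1580 against 2381, 1580 and 1184, and that with the lowest, Psmc4, had 434, 279 and 285 against 320, 289 and 154. Both overlapped between groups.

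The lid split evenly, with 2 genes higher and 2 lower of 8. Psmd13, a structural lid subunit, had 1527, 1102 and 1281 counts in LPS libraries, against 425, 573 and 695 in untreated wt libraries. It rose 2.33-fold (log2 fold change 1.22 ± 0.23, adjusted p = 0.000885). Psmd6, another structural subunit, had 148, 179 and 144 in LPS libraries and 463, 285 and 359 in untreated ones. It fell 2.31-fold (log2 fold change −1.21 ± 0.27, adjusted p = 0.00374). Without both untreated replicates 1 and 3, against 1 remaining library, the log2 fold change was −0.86. Psmd3 rose 1.85-fold with overlapping groups, at 1370, 1085 and 1503 against 617, 452 and 1272 (adjusted p = 0.0389); the call was lost without wt LPS replicate 1 (0.112) or 3 (0.129) or untreated wt replicate 1 (0.125) or 2 (0.195). Psmd14, which encodes the deubiquitinase of the lid, had 251, 299 and 229 in LPS libraries against 443, 360 and 441. It fell 1.60-fold (adjusted p = 0.0291; 0.0836 and 0.106 without wt LPS replicate 1 or 3, 0.0925 and 0.0776 without untreated wt replicate 1 or 3). Psmd11, a lid subunit linked to proteasome assembly in human stem cells, had 961, 877 and 1170 against 1431, 1173 and 2263 without a call (adjusted p = 0.0579). The lid genes with the highest and the lowest mean were also not called: Psmd8 had 3228, 2422 and 3124 against 1880, 1875 and 1984 (adjusted p = 0.0709), and Psmd12 had 195, 143 and 207 against 150, 156 and 125.

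The activator genes diverged. Psme3 encodes the nuclear, ubiquitin-independent activator PA28 gamma and lies on mm10 chromosome 11 at 101316213 to 101323537, plus strand. It had 240, 237 and 248 counts in wt LPS libraries, against 94, 75 and 61 in untreated ones. This was the highest fold among the 46, at 3.17-fold higher (log2 fold change 1.67 ± 0.24, adjusted p = 9.08e-05). Psme2, of the interferon-inducible activator PA28 alpha-beta (chromosome 14, 55587441 to 55591113, minus strand), fell instead. Its values were 237, 209 and 312 in LPS libraries and 528, 552 and 618 in untreated ones, at 2.26-fold lower (log2 fold change −1.18 ± 0.21, adjusted p = 0.000593). Its partner gene Psme1, 5.9 kb away, had 271, 348 and 251 against 383, 247 and 235 and was not called (log2 fold change 0.03, 95% interval −0.48 to 0.54). Psme2b, a close copy of Psme2 on chromosome 11, had 392, 406 and 448 against 361, 363 and 433, also without a call. How reads were shared between the copies is not given in the sources used here; their sum was 629, 615 and 760 with LPS and 889, 915 and 1051 without, and did not overlap between groups either. Psme4, of the activator PA200, had 320, 276 and 393 against 212, 224 and 179 and rose 1.60-fold (adjusted p = 0.0325; 0.0758 and 0.140 without wt LPS replicate 1 or 3, 0.0625 and 0.104 without untreated wt replicate 1 or 3). The ratio of Psme3 to Psme2, whose direction their calls likewise fix, was 1.01, 1.13 and 0.795 with LPS and 0.178, 0.136 and 0.0987 without.

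Psmf1 encodes PI31, which inhibits the core in vitro. It had 94, 113 and 96 counts in wt LPS libraries and 110, 86 and 71 in untreated ones and was not called.

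Of the 7 assembly factor genes 3 rose and 0 fell. Psmd9, a chaperone of the base, had 187, 159 and 180 counts in wt LPS libraries, against 86, 87 and 77 in untreated ones. Its groups were far apart, at 2.09-fold higher (log2 fold change 1.06 ± 0.23, adjusted p = 0.00328). Without both untreated replicates 1 and 3, against 1 remaining library, the log2 fold change was 0.9994. Psmd10, the base chaperone also known as gankyrin, had 376, 215 and 352 against 135, 159 and 169 and rose 1.98-fold (adjusted p = 0.00600). Without both of these replicates its log2 fold change was 0.94. Psmg3, a chaperone of the alpha ring, had 292, 179 and 183 against 61, 123 and 132 and rose 2.12-fold (adjusted p = 0.0136; 0.0914 without wt LPS replicate 1 and 0.0944 without untreated wt replicate 1). The other alpha-ring chaperone genes were not called. Psmg1 had 63, 53 and 62 against 32, 37 and 32 (adjusted p = 0.148), and its partner Psmg2, the assembly factor with the highest mean, had 212, 181 and 177 against 219, 253 and 251. Psmg4, the lowest, had 29, 78 and 32 against 34, 46 and 15. The base chaperone gene Psmd5 was not called either, nor was Psmc3ip.

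**Figure D2:**
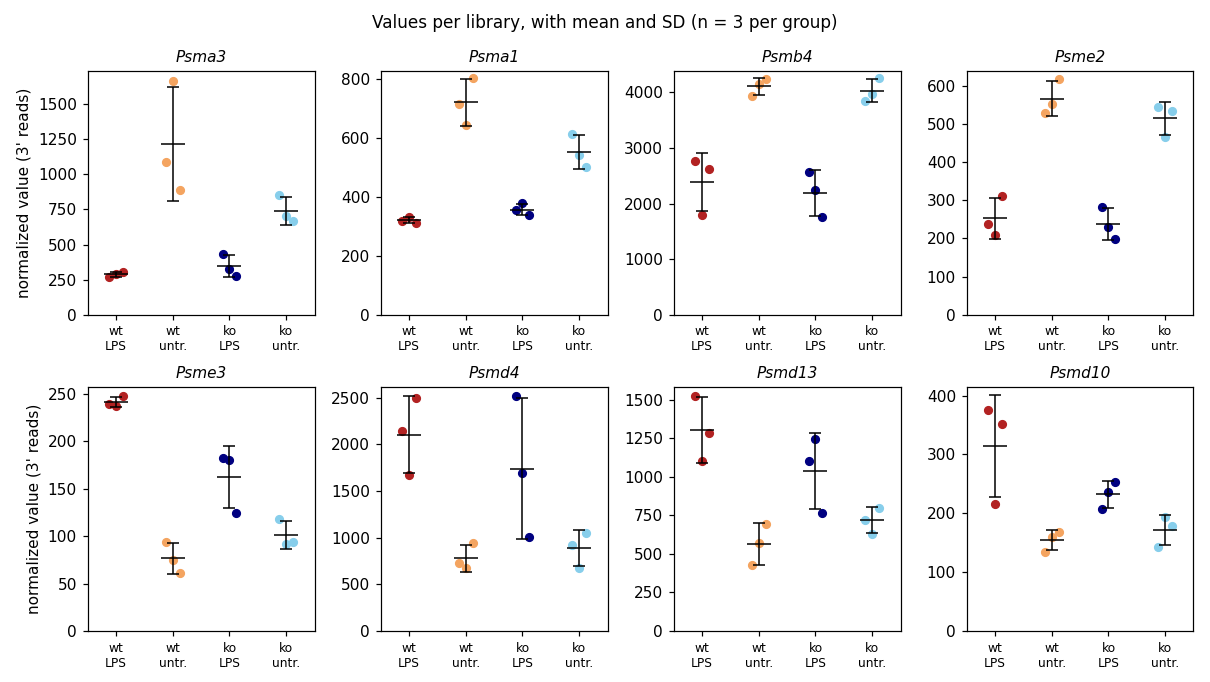
Normalized values of 8 proteasome genes in each library (points), with the mean and SD of the 3 libraries of a group (black bars); ko stands for MyD88ko and untr. for untreated. In wt cells Psma3, Psma1, Psmb4 and Psme2 had every LPS value below every untreated value, and Psme3, Psmd4, Psmd13 and Psmd10 the reverse.

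Promoters are shown for 5 of the called genes, picked as examples. RefSeq promoter sequences on GRCm38.p6, 250 bases before to 50 after a start, were found for 39 of the 46 genes. They were searched on both strands for 5 motifs: TGACNNNGC (the core of the antioxidant response element, which NFE2L1 and NFE2L2 bind), CCGGAAG (ETS factors), CCAAT (NF-Y), TTCNNNGAA (STAT) and the letters GGG and CC with 5 bases between them (NF-kB). Capitals mark matches to the first 3 of these on either strand. Psmd4, Psmd13 and Psme3 rose in wt cells; Psma3 and Psmb5 fell.
Psmd4, chr3:95042565-95042864, minus strand: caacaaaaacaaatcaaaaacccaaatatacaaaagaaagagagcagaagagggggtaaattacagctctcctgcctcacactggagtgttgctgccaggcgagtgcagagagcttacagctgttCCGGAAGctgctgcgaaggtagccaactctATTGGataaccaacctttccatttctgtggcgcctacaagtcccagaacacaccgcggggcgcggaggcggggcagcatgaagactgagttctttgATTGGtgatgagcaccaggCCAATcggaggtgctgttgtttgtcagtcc
Psmd13, chr7:140882144-140882443, plus strand: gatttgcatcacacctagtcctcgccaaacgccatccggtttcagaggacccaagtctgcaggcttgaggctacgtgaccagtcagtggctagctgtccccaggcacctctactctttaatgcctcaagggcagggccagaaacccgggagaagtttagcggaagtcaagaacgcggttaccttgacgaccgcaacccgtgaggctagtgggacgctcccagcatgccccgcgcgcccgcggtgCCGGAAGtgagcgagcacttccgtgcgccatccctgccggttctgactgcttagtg
Psme3, chr11:101315963-101316262, plus strand: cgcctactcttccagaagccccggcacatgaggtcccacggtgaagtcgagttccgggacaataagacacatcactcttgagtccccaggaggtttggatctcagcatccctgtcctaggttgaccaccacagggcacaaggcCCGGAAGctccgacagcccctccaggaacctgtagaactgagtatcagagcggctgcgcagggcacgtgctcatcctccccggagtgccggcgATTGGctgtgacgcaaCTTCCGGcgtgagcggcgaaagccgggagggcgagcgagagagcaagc
Psma3, chr12:70974373-70974672, plus strand: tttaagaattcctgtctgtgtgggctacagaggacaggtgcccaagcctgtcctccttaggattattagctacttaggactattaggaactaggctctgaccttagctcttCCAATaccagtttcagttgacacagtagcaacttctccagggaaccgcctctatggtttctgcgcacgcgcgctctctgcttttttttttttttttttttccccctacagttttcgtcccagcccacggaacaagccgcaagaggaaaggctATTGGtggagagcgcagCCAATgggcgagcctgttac
Psmb5, chr14:54617946-54618245, minus strand: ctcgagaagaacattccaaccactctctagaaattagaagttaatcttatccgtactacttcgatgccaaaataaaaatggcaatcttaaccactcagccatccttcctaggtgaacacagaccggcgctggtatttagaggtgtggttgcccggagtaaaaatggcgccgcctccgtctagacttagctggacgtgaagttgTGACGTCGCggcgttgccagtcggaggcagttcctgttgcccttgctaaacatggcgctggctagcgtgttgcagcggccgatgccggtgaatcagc

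Of the 5 promoters shown, those of Psmd4, Psmd13 and Psme3 held the ETS letters, with 2 matches in Psme3. Those of Psma3 and Psmb5 did not. These 5 were picked and do not stand for all called genes. Over the proteasome genes, 15 of 39 promoters (38.5%) held CCGGAAG, against 9.9% of 27025 genes in the RefSeq table, expressed or not. It was present in 6 of the 10 genes that rose in wt cells with LPS and have a promoter sequence, and in 1 of the 8 that fell, Psmd6. Genes not called in wt cells held it too: Psma6, Psmc2, Psmc6, Psmd2, Psmd11, Psmd12, Psmg1 and Psmc3ip. The antioxidant response element core was found in 6 of 39 (15.4%, against 14.0% of all genes), CCAAT in 13 (33.3% against 41.1%), the STAT letters in 2 (5.1% against 9.6%) and the NF-kB letters in 23 (59.0% against 53.5%). Among the genes that rose, 2 of 10 held the antioxidant response element core and 2 of 10 the NF-kB letters; among those that fell, 1 of 8 and 4 of 8 did. These letter matches are a description and not binding sites, and whether they bear on the direction of a gene was not tested.

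In MyD88ko cells LPS was followed by a fall in 5 of the 46 genes and a rise in 0 by limma (1, Psmd4, by voom on estimated reads). The share of 10.9% stands against 5.98% of all genes (2.58% higher, 3.40% lower) and 8.71% of those with a mean of at least 50. At an unadjusted p under 0.05, 18 of the 46 passed (39.1%, against 21% of all genes), and in 17 the groups did not overlap, against 25.5% of all genes. The median log2 fold change was 0.01. Psme2 had 282, 229 and 199 counts in LPS libraries, against 544, 465 and 535 in untreated MyD88ko libraries. It fell 2.19-fold (log2 fold change −1.13 ± 0.21, adjusted p = 0.00307). Psma3 had 436, 328 and 278 against 854, 702 and 664, a fall of 2.15-fold (adjusted p = 0.00732). Psmd11 had 931, 820 and 690 against 1692, 1415 and 1961, at 2.07-fold lower (adjusted p = 0.0102; 0.0631 without untreated MyD88ko replicate 3). Psmb3, a non-catalytic beta-ring gene, had 170, 162 and 145 against 313, 320 and 313, at 1.98-fold lower (adjusted p = 0.00694). Psmb4 had 2562, 2248 and 1753 against 3853, 3975 and 4258, at 1.86-fold lower (adjusted p = 0.0121; 0.0503 and 0.0584 without untreated MyD88ko replicate 2 or 3). In each of these 5 genes every LPS library was below every untreated one. The count that fell was 3 without untreated MyD88ko replicate 3. By the authors' deposited table, 0 of the 46 passed an adjusted p of 0.05 here, where 0.755% of all genes did.

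Of the 11 genes that rose in wt cells, 10 had a log2 fold change above 0 in MyD88ko cells, but none was called there. Psmd4 had 2518, 1692 and 1012 counts in LPS libraries, against 927, 675 and 1055 in untreated MyD88ko libraries, so that LPS replicate 3 lay within the untreated range (log2 fold change 0.90 ± 0.28, adjusted p = 0.0597). Without that replicate the log2 fold change was 1.24 and the adjusted p 0.00529. Psme3 had 183, 180 and 125 against 118, 92 and 94 (log2 fold change 0.67, adjusted p = 0.113), with no overlap. Psmd13 had 1101, 1245 and 768 against 723, 631 and 799 (log2 fold change 0.51, adjusted p = 0.205). Psme4 had 372, 288 and 318 against 239, 179 and 207, a log2 fold change of 0.65 close to the 0.67 of wt cells (adjusted p = 0.0809). Psmd9 and Psmc1 were near 0, with log2 fold changes of 0.08 and −0.03. Psmb10 had 304, 176 and 158 against 197, 158 and 225 (log2 fold change 0.09, adjusted p = 0.878).

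Among the catalytic core genes of MyD88ko cells, Psmb5 had 219, 231 and 202 against 397, 290 and 313 (log2 fold change −0.60, adjusted p = 0.118), Psmb6 had 2014, 1480 and 1043 against 1368, 1119 and 1448, and Psmb7 had 378, 283 and 187 against 216, 136 and 127 (adjusted p = 0.162). Psme1 had 253, 172 and 155 against 306, 304 and 239 (adjusted p = 0.186), and Psmd14 had 279, 284 and 226 against 341, 309 and 243 (adjusted p = 0.692). The summed value of Psme2 and Psme2b was 759, 614 and 523 against 849, 797 and 876. Psmf1 had 94, 125 and 66 against 99, 71 and 86. The 7 assembly factor genes had log2 fold changes between −0.44 for Psmg2 and 0.54 for Psmg3, and 0 were called. Psmg1 had 120, 57 and 34 against 44, 35 and 54, Psmg2 214, 237 and 159 against 249, 252 and 319, Psmg3 301, 180 and 198 against 159, 160 and 137, and Psmg4 60, 71 and 49 against 19, 77 and 60. The values of Psmg1 and Psmg4 overlapped between the groups, and those of Psmg2 and Psmg3 did not.

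**Figure D3:**
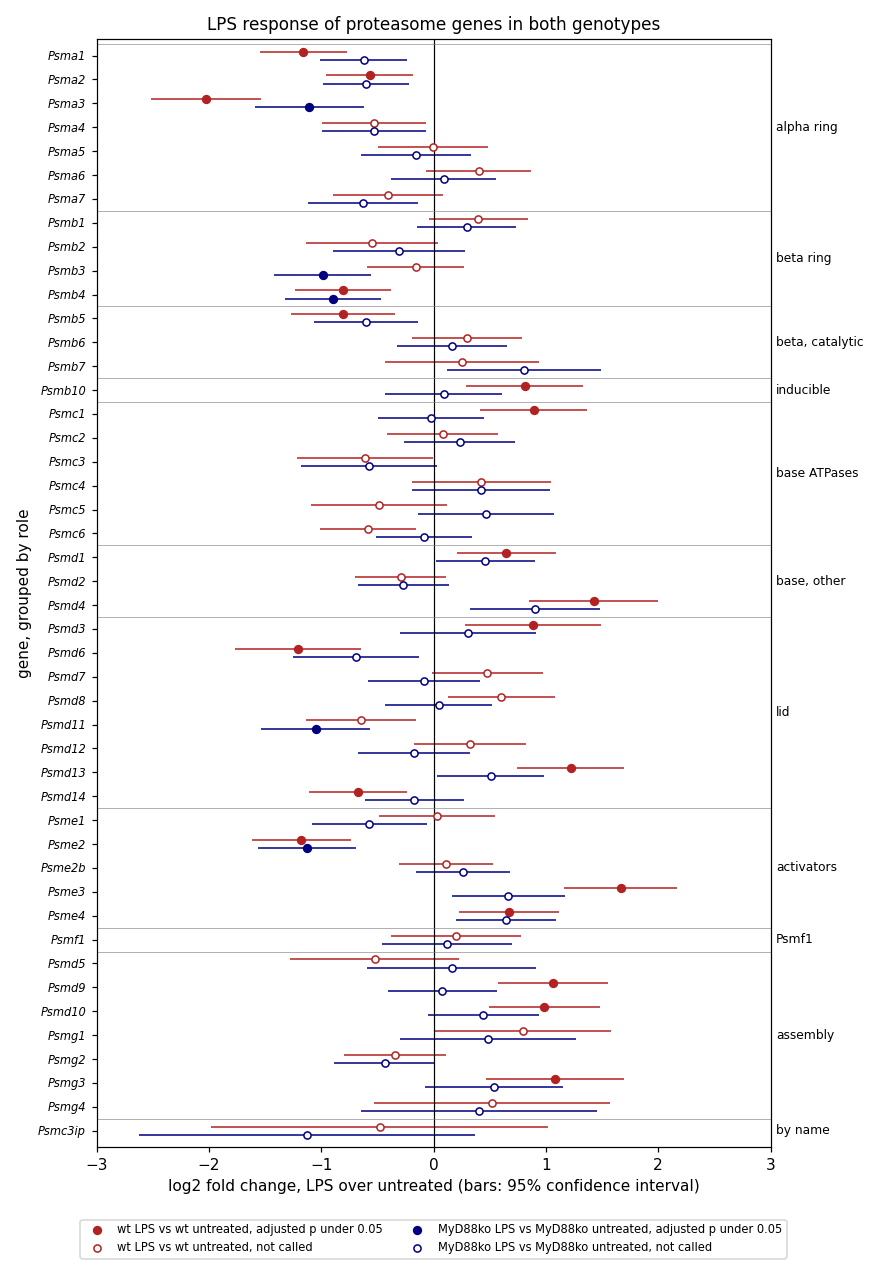
Log2 fold change of each proteasome gene, LPS over untreated, in wt (red) and MyD88ko (blue) cells, with 95% confidence intervals; filled points have an adjusted p under 0.05 over all genes. In 40 of 46 genes both points lie on the same side of 0, and Psma3, Psmb4 and Psme2 are filled in both genotypes.

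The LPS comparisons of the genotypes share no library, although both rest on the same series of library codes. In 40 of the 46 genes the sign was the same in both (87.0%, against 69.7% of all genes), and across the 46 genes the log2 fold changes correlated at Pearson r = 0.791 and Spearman rho = 0.786. Genes are not independent replicates, and over all 12385 genes r was 0.551. The 46 genes had higher values than all tested genes (median 319.0 against 82.0) and a smaller median within-group SD (0.29 against 0.40). Agreement among genes of a like level was not computed, so these values do not show a trait particular to the proteasome. Of the 19 genes called in wt cells, 18 had the same sign in MyD88ko cells and 17 a smaller size; the 19 were chosen by their wt values, so a smaller size in the other genotype is a description only. Psma3, Psmb4 and Psme2 were called lower in both.

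The difference between both LPS responses was tested directly as an interaction, and 0 of the 46 genes passed by limma or by voom, and over all genes 2 were called (0.0161%). At an unadjusted p under 0.05, 7 of the 46 passed (15.2%, against 9.18% of all genes). The smallest p belonged to Psmd9, with a log2 difference in response, MyD88ko minus wt, of −0.98 (95% interval −1.67 to −0.29, adjusted p = 0.364). Psme3 followed at −0.9996 (−1.71 to −0.28, adjusted p = 0.371) and Psmc1 at −0.92 (−1.58 to −0.25, adjusted p = 0.388). For Psma3 the difference was 0.92 (0.23 to 1.61, adjusted p = 0.391). That a gene was called in wt cells and not in MyD88ko cells was therefore not shown to be a difference between the genotypes at this number of libraries.

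Direct comparisons of the genotypes, which share their libraries with the LPS comparisons, also gave 0 calls among the 46 by limma and by voom. In untreated cells 1.88% of all genes were called. At an unadjusted p under 0.05, 5 of the 46 passed (10.9%), below the 15.5% of all genes. Psma3 had 854, 702 and 664 in untreated MyD88ko libraries, against 1087, 1666 and 889 in untreated wt libraries (log2 fold change −0.67, 95% interval −1.16 to −0.18, adjusted p = 0.155). Psmd9 had 109, 129 and 155 against 86, 87 and 77 (0.63, 0.15 to 1.12, adjusted p = 0.178). Psmd6 had 249, 204 and 203 against 463, 285 and 359 (−0.73, −1.29 to −0.17, adjusted p = 0.179). In these 3 genes the genotypes did not overlap, which held for 10 of the 46 and for 20.4% of all genes. With LPS 1.49% of all genes were called, and again 5 of the 46 had an unadjusted p under 0.05 (10.9%, near the 12% of all genes). In 7 of the 46 the genotypes did not overlap, as in 15.8% of all genes. Psmb3 had 170, 162 and 145 in MyD88ko LPS libraries, against 217, 215 and 279 in wt LPS libraries (−0.57, −0.998 to −0.13, adjusted p = 0.242). Psmc1 had 353, 339 and 309 against 602, 399 and 552 (−0.61, −1.09 to −0.14, adjusted p = 0.248). Psme1 had 253, 172 and 155 against 271, 348 and 251 (−0.60, −1.11 to −0.09, adjusted p = 0.314). The authors' deposited tables call 0 of the 46 in either comparison, against 1.60% of all genes in untreated cells and 0.544% with LPS.

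Summed over genes, the proteasome took a similar part of the normalized total with and without LPS in wt cells, while its components shifted. The 46 genes took 0.845%, 0.691% and 0.814% of the total in wt LPS libraries and 0.836%, 0.761% and 0.834% in untreated ones. The 14 constitutive core genes took 0.318%, 0.254% and 0.302% with LPS, against 0.395%, 0.386% and 0.372% without, and did not overlap. The 17 regulatory particle genes took 0.441%, 0.356% and 0.432% against 0.369%, 0.307% and 0.392%, with overlap. The assembly factors took 0.0356%, 0.0283% and 0.0286% against 0.0211%, 0.0232% and 0.0239%, without overlap. In MyD88ko cells the core genes took 0.273%, 0.242% and 0.199% with LPS, against 0.321%, 0.314% and 0.312% without, again with no overlap. The regulatory particle genes took 0.400%, 0.342% and 0.289% against 0.334%, 0.290% and 0.344%, which overlapped. The assembly factors took 0.0277%, 0.0260% and 0.0304% against 0.0228%, 0.0249% and 0.0235%, without overlap. In MyD88ko LPS replicate 3, Psmd5 made up 402 of their summed value of 1223. Psmd5 had 117 and 141 in MyD88ko LPS replicates 1 and 2, and 234, 184 and 110 in untreated MyD88ko libraries. The separation of the assembly factors in MyD88ko cells therefore rests in part on Psmd5 in that library. All 46 genes took 0.747%, 0.649% and 0.551% against 0.723%, 0.668% and 0.719%. MyD88ko LPS replicate 3 was the lowest of the 12 libraries for all 46 genes, for the core and for the regulatory particle. It was also the lowest for the activators, at 0.0278%, but not for the assembly factors. The sums are given as values with no test, and are led by the genes with high values, such as Psmb4 and Psma7 in the core.

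**Figure D4:**
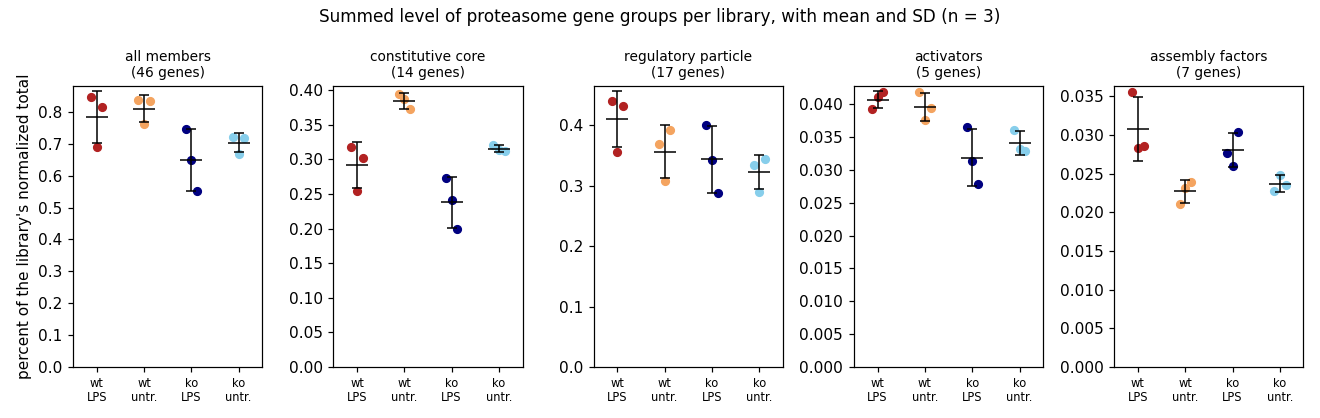
Summed normalized value of the proteasome genes and of their groups, as a percent of each library's total (points), with mean and SD of 3 libraries (black bars); ko stands for MyD88ko and untr. for untreated. The constitutive core lies lower in the LPS libraries of both genotypes, and the assembly factors lie higher, without overlap. In MyD88ko cells the separation of the assembly factors rests in part on Psmd5 in LPS replicate 3.

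Other genes of the ubiquitin-proteasome system were counted from a list of 34 tested genes. In wt cells with LPS 5 rose and 3 fell (23.5%, near the 19.2% of all genes), with a median log2 fold change of −0.01. Ubqln4, which encodes a shuttle that brings ubiquitinated proteins to the proteasome, had 141, 116 and 132 counts in LPS libraries against 62, 64 and 42 (log2 fold change 1.22, adjusted p = 0.00867). Uba1, of the main ubiquitin-activating enzyme, had 2503, 1402 and 1853 against 1061, 912 and 782 (1.03, adjusted p = 0.00282). Stub1, of a chaperone-linked ubiquitin ligase, had 825, 658 and 981 against 389, 406 and 468 (0.95, adjusted p = 0.00390). Rps27a, which encodes ubiquitin fused to a ribosomal protein, fell, with 4520, 3869 and 5624 against 11862, 14331 and 8912 (−1.31, adjusted p = 0.000912). Akirin2, of a factor that carries proteasomes into the nucleus in human cells, had 556, 750 and 836 against 959, 1463 and 1275 (−0.79, adjusted p = 0.0150). Nfe2l1, of the transcription factor that raises proteasome genes, had 804, 936 and 1049 against 1262, 1570 and 1696 (−0.70, adjusted p = 0.0433). In MyD88ko cells Rps27a fell (−1.16, adjusted p = 0.00774) and the other 33 were not called; Nfe2l1 had 1039, 1000 and 574 with LPS against 1330, 938 and 1273 without. None of the 34 was called between genotypes in untreated or in LPS-treated cells.

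Proteasome components whose symbols lie outside the rule were not called in any comparison. Adrm1, of another ubiquitin receptor of the base, had 69, 54 and 55 counts in wt LPS libraries against 106, 84 and 102 (log2 fold change −0.71, adjusted p = 0.0587). Shfm1, of the small lid subunit SEM1, had 456, 448 and 530 against 717, 657 and 752 (−0.57, adjusted p = 0.0512). Pomp, of the chaperone that matures the core, had 2417, 1308 and 2722 against 2760, 2483 and 1974. Usp14 and Uchl5, of deubiquitinases bound to the base, had 228, 247 and 356 against 298, 219 and 241, and 124, 62 and 101 against 76, 115 and 92. In the last 3 genes the groups overlapped.

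The 46 genes lie on 16 chromosomes, 10 of them on chromosome 11. The median GC content of the genes was 47.14% for those that rose in wt cells with LPS and 41.72% for those that fell; over all genes it was 49.66% and 45.45%. With each library corrected for GC content, 9 of the 46 rose and 6 fell in wt cells by limma. The calls lost were those of Psmb10 (adjusted p = 0.109) and Psmd3 (0.0618), which rose, and of Psma2 (0.1235) and Psmd14 (0.0748), which fell. In GENCODE M21 4 of the 46 have a gene on the opposite strand over their last 500 bases: Psmb7, Psmc3, Psme1 and Psmc3ip. Whether reads were counted by strand is not given in the sources used here, so the values of these 4 genes may hold reads of their neighbours.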

How the data were processed

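Tools named in the submitters' processing notes are TopHat2, Bowtie2 and DESeq, with build mm10 and no versions or roles. Per the file headers, the deposited expression values are scores, counts per gene that the authors normalized and rounded to whole numbers; 166719 values given in a pair of tables were compared and 0 differed. The authors deposited their own p-value and adjusted p per gene, a fold change as a ratio of group means, its log2, and GC content as a fraction. All per-sample columns were mapped to samples.

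Since the values are not raw counts, log2(value + 1) was tested with limma 3.58.1 in R 4.3.3 (trend, robust), in 1 fit of 12 libraries in 4 groups leaving 8 residual degrees of freedom. Genes entered the test if they had 12 values and a group mean of 10 or more in any group. Calls are two-sided at a Benjamini-Hochberg adjusted p under 0.05 over all 12385 genes, in 5 comparisons. The script was tested on simulated data with 100 genes changed at each of 2 sizes in the wt LPS libraries. It called 30% of those with a log2 change of 1 and 70% of those with 2, and 5.66% of the calls were false. Far fewer genes were changed there than were called in wt cells with LPS, so these shares need not hold here. A gene that was not called may still have changed. Folds are on the log2(value + 1) scale, which understates changes of low genes. Normalized totals were 3599944 to 4320551; reads per library were estimated, up to a common factor, from which low whole numbers never occur after scaling and rounding.

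The genes, roles, lists and tests were chosen with earlier results of these data known. Named genes were, per comparison, the 6 highest and 6 lowest called (all where 12 or fewer were called, or the 3 smallest p where none was), fixed key subunits, and the highest and lowest gene of each role by mean; others are named to account for every called gene. The alternatives covered quantile normalization and a TMM-like rescaling, no trend in limma, other filters, pseudocounts of 0.5 and 5, a replicate block, fits of the compared groups alone, and leaving out libraries. After values were seen, a GC correction and voom on estimated reads were added.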

Additional observations from a re-analysis of the deposited data

How the results depend on the processing

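Of 4273 values of single genes recomputed under the alternatives, 0 turned the direction of a call, 60 lost a call and 14 gained one. Of the 19 genes called in wt cells with LPS, Psma1, Psma3, Psmd4, Psmd13, Psme2 and Psme3 were called under all 18 alternatives of that comparison. Of the 5 called in MyD88ko cells, Psma3, Psmb3 and Psme2 were called under all 17. The count of genes that rose in wt cells was 11. It was 7 by limma without trend and 5 to 10 leaving out 1 library. The count that fell, 8, was 5 to 9 leaving out 1 library. Without both untreated wt replicates 1 and 3 the reference is 1 library, so only fold changes are given for that fit. In MyD88ko cells the count that fell, 5, was 3 by limma without trend and 3 to 6 leaving out 1 library, and the count that rose, 0, was 1 (Psmd4) by quantile normalization, by voom on estimated reads and without MyD88ko LPS replicate 3, a range of 0 to 1. The median log2 fold change leaving out 1 library was −0.027 to 0.203 in wt and −0.199 to 0.0237 in MyD88ko cells with LPS, −0.0724 to 0.0509 between genotypes untreated, −0.235 to −0.023 with LPS, and −0.238 to 0.0113 for the difference of responses. By voom the medians between genotypes were −0.16 untreated and −0.24 with LPS, against −0.02 and −0.12 before. The cause of these shifts was not tested. Same-numbered libraries did not deviate together (18 pairs, r between −0.11 and 0.17, 2 over 0.1), so the numbers were not taken as pairs; with a replicate block 11 rose and 10 fell in wt cells and 0 and 5 in MyD88ko cells. Each group has 3 libraries, and genes under about 50 counts, such as Psmg4 and Psmc3ip, have the widest intervals.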
